A study of Homo sapiens with 6 samples.

Results

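LARS2, DUOX1, SHF, PLAUR, IGFBP4, SERTAD3, MAPKBP1 and PRR5 are 8 of the 19974 protein-coding genes with a position in the GRCh38.p14 RefSeq gene table, and were chosen by the height of their TCF4 peaks at a gene end. Height is the fold enrichment that the authors' peak caller wrote for each peak. It is the pile-up of fragments at the summit, plus 1, over the local background, plus 1. A gene end is the 1 kb on either side of the gene's first or last base, and a peak counts there when at least 1 bp of it overlaps. Because TCF4 folds chose the genes, those folds are given as a description, with no test. The choice held for 7 genes, which ranked between 1 and 10 among all genes. It did not hold for PRR5, whose end peaks had TCF4 folds of 4.52 and 4.07 and put it at rank 6696, and whose strong TCF4 peak lies inside the gene. PRR5 is kept below and described by that inner peak.

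The libraries were made by CUT&Tag, in which an antibody guides a transposase to cut and tag the DNA around a bound protein, from an established line of human neuroblastoma cells, SK-N-BE(2). All groups are this same line, with no treatment named in the labels: HAND2 antibody (2 replicates), MEIS2 antibody (2 replicates), TCF4 antibody (1 library) and IgG (1 library, whose peaks were not analysed here). No label says that the replicates came from separate cultures, and no label tells of a change to any gene. On chromosomes 1 to 22 and X, the HAND2 lists held 30410 and 33484 peaks, those of MEIS2 9595 and 13871 and that of TCF4 30704. Depth differed: the median pile-up at a summit was 34 and 41 fragments in the HAND2 lists, 22 and 13 in those of MEIS2 and 60 in the TCF4 list. The local background at MYCN was 1945 in the TCF4 list against a median of 11.0, and was 1976, 2294 and 654 in HAND2 replicates 1 and 2 and MEIS2 replicate 1. None of the 8 genes lies in such a stretch, their strongest TCF4 peaks having backgrounds of 3.14 to 33.7.

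TCF4 is an E protein of the basic helix-loop-helix class. Such factors bind DNA as pairs, with each other or with tissue-restricted partners such as HAND2, at the short palindromic E-box, CANNTG. HAND2 helps to specify sympathetic neurons, the lineage from which neuroblastoma arises, and MEIS2 is a homeodomain factor of the TALE class whose core site is TGACAG. The name TCF4 has also been used for the Wnt effector TCF7L2. The labels give the name and a catalogue number of the antibody, and which protein it bound was not tested. No expression was measured, so a peak says where a factor was found and not what the gene did.

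The strongest TCF4 peaks of the 8 genes stood at 7 places, since DUOX1 and SHF share a peak. Their folds ran from 54.7 to 145 and their widths from 1406 to 3858 bp. These places fell into 2 kinds. At LARS2, DUOX1/SHF and IGFBP4 the summit lay far from any listed transcription start, 8769 to 38820 bp away. At MAPKBP1, PLAUR, SERTAD3 and PRR5 it lay within 62 to 128 bp of a listed start, and for the first 3 of these the nearest start was that of another gene. Starts are those of the RefSeq promoter table, which has no start for 4161 protein-coding genes, so a nearer start can be missing.

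**Figure D1:**
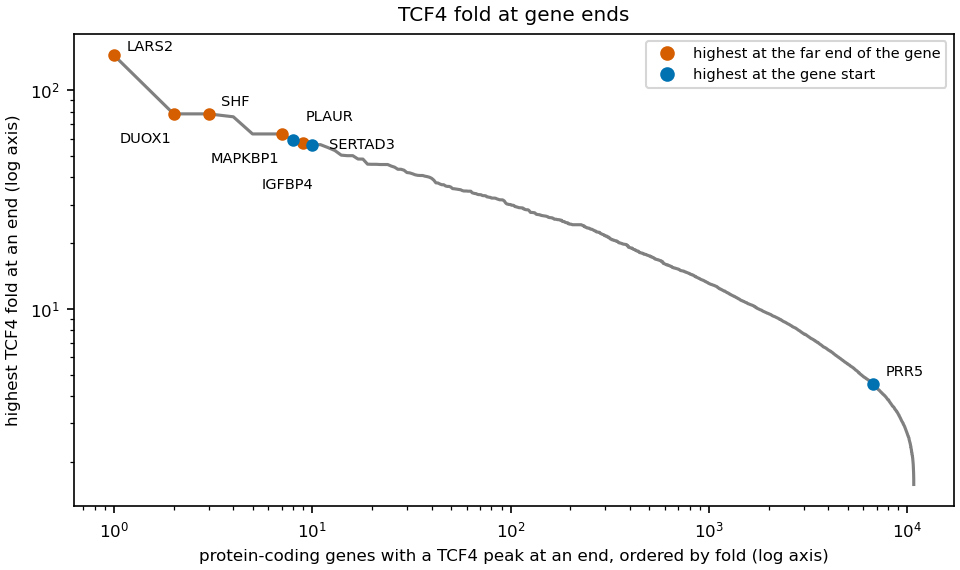
Highest TCF4 fold at a gene end against the rank of the gene (both log axes) for all protein-coding genes with a TCF4 peak there, with the 8 genes coloured by the end with the higher fold. LARS2 stands alone at 145, from 598 fragments over a background of 3.14. PLAUR, IGFBP4 and SERTAD3 sit close together between 56.4 and 59.2, from 1404 to 1781 fragments over 22.7 to 30.6. PRR5, at 4.52, lies among the bulk of genes.

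Around the cutoff the order was fine-grained. SERTAD3, the lowest gene that met the choice, had a fold of 56.4 with a 95% counting interval of 53.9 to 59.1. DAND5, a secreted BMP and Nodal antagonist and the next gene down, also came to 56.4. PRR5-ARHGAP8, a readthrough transcript with PRR5, had 54.7, GNG8 53.0 and TLX2 50.5. Within the range of the listed genes, 3 others were not on the list. TMEM191B had 75.7, and whether its reads are shared with a near-identical copy was not tested. JMJD7 and JMJD7-PLA2G4B, at 63.2, share the peak of MAPKBP1. The median over all 10769 genes with a TCF4 peak at an end was 5.33. Intervals given for folds treat the pile-up as a Poisson count (exact, 95%) over a constant background, and cover counting error only.

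Most genes with TCF4 had it at the start. Among the 15813 genes with a known strand, 52.9% had a TCF4 peak at the start, 12.3% at the far end and 10% at both. Of the 8 genes, 7 had one at the start, 6 at the far end and 5 at both. The higher of the 2 folds was at the far end in LARS2, DUOX1, SHF, IGFBP4 and MAPKBP1, that is in 5 of 8, against 10.7% of the stranded genes with a TCF4 peak at an end. The choice asked for the highest fold at either end, so these counts come from the values that chose the genes, DUOX1 and SHF count the same peak, and nothing is read from them.

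HAND2 folds were not used in the choice, but HAND2 overlapped a larger share of the higher TCF4 peaks than of the lowest, so a comparison with all genes is not independent of it. A HAND2 region, meaning a merged span with a peak of both replicates, was found at an end of 6 of the 8 genes, LARS2, DUOX1, SHF, IGFBP4, SERTAD3 and MAPKBP1, and not of PLAUR or PRR5. The count fell to 2, IGFBP4 and MAPKBP1, when the summit of the region had to lie in the window. Of all protein-coding genes 19.1% had one, and of those with a TCF4 peak at an end 33%. By end, it was at the start of 4 genes (16.9% of stranded genes) and at the far end of 4 (4.92%). The far-end regions, at LARS2, DUOX1, SHF and IGFBP4, all lay at the TCF4 peaks that chose the genes. DUOX1 and SHF count the same region there. At SERTAD3 and MAPKBP1 the HAND2 folds were low, 2.33 and 2.70 at the first and 2.72 and 2.42 at the second. They came from 40 and 52 fragments at SERTAD3 and 81 and 87 at MAPKBP1, over backgrounds of 16.6 to 35.4. At the far end of LARS2, 74 and 102 fragments stood over backgrounds of 3.16 and 2.79. Each replicate alone found the same 6 genes, against 20.6% and 27.8% of all genes. A MEIS2 region was found at an end of SHF only, against 0.946% of all genes and 1.38% of those with TCF4 at an end. It was at the start (0.759% of stranded genes), and 0 genes had one at the far end (0.424%). MEIS2 replicate 1 had a peak at an end of 3 genes, LARS2, SHF and IGFBP4, against 11.5%, and replicate 2 at SHF alone, against 2.18%.

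Counted by place rather than by gene, 4 of the 7 strongest TCF4 peaks overlapped a HAND2 region, against 41.5% of all TCF4 peaks. HAND2 replicate 1 alone overlapped 4 and replicate 2 alone 5, against 43% and 52.9%. None overlapped a MEIS2 region, against 3.58%. MEIS2 replicate 1 alone overlapped 3 of them, against 20.1%, and replicate 2 none, against 4.14%. The 3 places far from a start all carried both HAND2 replicates and MEIS2 replicate 1. Of the 4 places at a start, SERTAD3 alone carried a HAND2 region, and none carried MEIS2 in either replicate.

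For HAND2 a difference in the same direction ran through the TCF4 list. Among its 100 highest peaks, 8 had their summit within 1 kb of a listed start and 91 lay farther away (peaks on chromosome 8, which the promoter table lacks, were left out). A HAND2 region overlapped 4 of the 8, or 50% (exact 95% binomial interval 15.7 to 84.3%), and 89 of the 91, or 97.8% (92.3 to 99.7%). MEIS2 replicate 1 overlapped 37.5% and 92.3%. From there to rank 1000 the HAND2 shares were 75.4% of 126 peaks at starts and 94.7% of 750 away. From there to rank 10000 they were 52.3% of 2650 and 72.1% of 6012, and below that 21.4% of 6241 and 31.9% of 13678. In every rank class the HAND2 share was higher away from starts. For MEIS2 replicate 1 it was not: below rank 10000 its shares were 12.5% at starts and 9.51% away, and over all TCF4 peaks 18.8% and 20.3%. The 7 places are among the 100 highest peaks. They make up 4 of the 8 at starts, 1 of them with a HAND2 region, and 3 of the 91 farther away, all with one. The shares of that class thus rest in part on these places and are no independent check on them. In the highest class the median local background at the 2 kinds was 15.7 and 13.3 and the median width 2651 and 2500 bp. In the lowest it was 17.2 and 8.62, with widths of 839 and 643 bp. The part of background and width in the shares was not tested. The binomial intervals treat peaks as independent draws and do not cover variation between TCF4 libraries, of which there was 1.

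**Figure D2:**
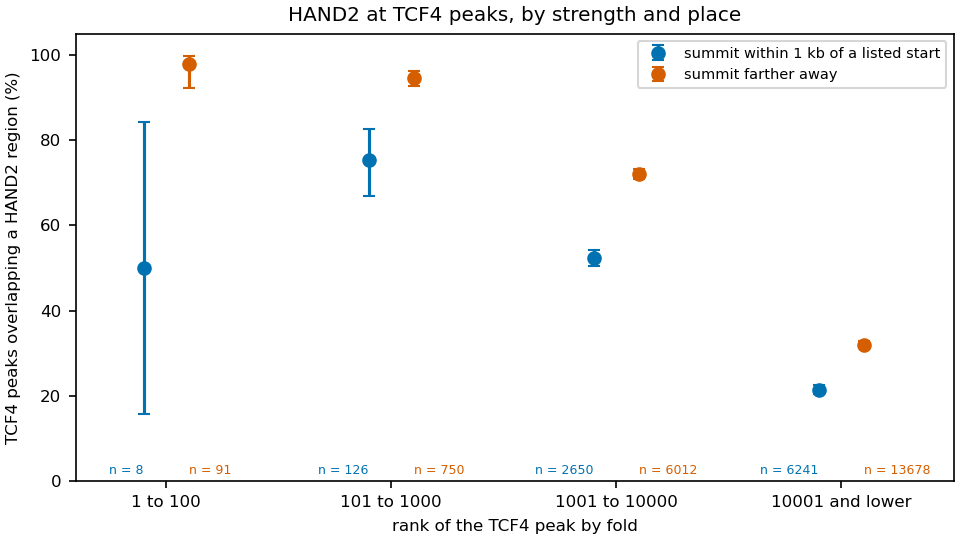
Share of TCF4 peaks that overlap a HAND2 region (percent, exact 95% binomial intervals) by the rank of the TCF4 fold, for summits within 1 kb of a listed start and farther away; n is the number of peaks. In the highest class the shares are 50% of 8 and 97.8% of 91 peaks, and in the lowest 21.4% and 31.9%. The 8 include 4 places of the listed genes. The intervals treat peaks as independent draws from 1 TCF4 library.

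LARS2 encodes the mitochondrial leucyl-tRNA synthetase, which loads leucine onto its tRNA for translation inside mitochondria (gene ID 23395, chr3:45388576-45549407, plus strand). Its TCF4 peak at chr3:45547491-45549008 ranked 3 in the whole list, with 598 fragments over a background of 3.14 and a fold of 145 (133 to 157). That background was low, as only 4.62% of TCF4 peaks had one at or below it. At MAPKBP1, PLAUR, IGFBP4, SERTAD3 and DUOX1/SHF the pile-ups were higher, 904 to 2708 fragments, over backgrounds of 13.3 to 33.7. At PRR5 there were 488 over 7.94. The LARS2 summit lay inside the gene, 1042 bp before its far end, and the nearest listed start, that of LARS2-AS1, was 38820 bp away. HAND2 replicates 1 and 2 had folds of 18.0 (14.2 to 22.6) and 27.1 (22.2 to 32.9) there, with summits 8 and 1 bp from that of TCF4. MEIS2 replicate 1 had 8.04 (4.72 to 12.9), from 15 fragments, with its summit 47 bp off. At the start of LARS2 the only peak was a TCF4 peak of 3.46, from 35 fragments. Both HAND2 replicates, MEIS2 replicate 1 and TCF4 thus had their higher end fold at the far end, and the start was empty in all libraries but TCF4.

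DUOX1 (gene ID 53905, chr15:45129994-45165574, plus strand) makes hydrogen peroxide at the cell surface, and SHF (gene ID 90525, chr15:45167214-45201116, minus strand) is an SH2-domain adaptor of the SHB family. The 2 genes face each other with their far ends 1640 bp apart. A TCF4 peak of 3820 bp, at chr15:45166525-45170344, began between them and reached into SHF. Its fold was 78.1 (75.1 to 81.0), from 2708 fragments over 33.7, at rank 15. The summit lay in SHF, 2321 bp from its far end and 3961 bp beyond that of DUOX1, so the count for DUOX1 rests on the edge of a broad peak. HAND2 had folds of 32.4 and 30.8 there, with summits 229 and 99 bp from that of TCF4. MEIS2 replicate 1 had 10.2, with its summit 103 bp off, and a second peak of 4.35. HAND2 replicate 2 covered nearly all of the gap and the place in SHF with a single peak of 4746 bp, where replicate 1 had 2 peaks, the lower one of 3.17.

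The starts of these neighbours differed. At the start of DUOX1 no library had a peak, and the same was true at both ends of DUOX2, DUOXA1 and DUOXA2, the sister oxidase and the maturation factors that lie upstream of it. At the start of SHF all 5 libraries had a peak, the only end among the 16 ends of the 8 genes where they did. MEIS2 had folds of 11.9 and 4.53 there, HAND2 had 4.36 and 5.39, and TCF4 had 6.35. The TCF4 and MEIS2 summits lay 123 to 461 bp inside the gene. Those of HAND2 lay 2295 and 2148 bp inside it, so HAND2 reached the start by the edge of a wide peak. The peaks of 4 libraries, all but MEIS2 replicate 2, ended at the same base, 45201175; the reason was not tested. The start site window of SHF is shown as the place of the only MEIS2 region at an end of these genes (RefSeq, GRCh38.p14, chr15:45201067-45201366, minus strand, 250 bases before the start and 50 after, E-box in capitals).
SHF start: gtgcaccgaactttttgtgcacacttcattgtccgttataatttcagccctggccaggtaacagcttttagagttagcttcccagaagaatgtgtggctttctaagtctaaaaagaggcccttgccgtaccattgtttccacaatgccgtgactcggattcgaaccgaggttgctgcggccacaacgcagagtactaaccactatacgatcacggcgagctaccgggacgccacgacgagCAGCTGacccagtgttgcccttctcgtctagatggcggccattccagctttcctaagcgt
It holds a single E-box, CAGCTG, whose 5′-most base is 10 bp before the start, and no TGACAG on either strand. CAGCTG is in 17.9% of 34943 such windows and TGACAG in 15.8%.

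Inside SHF there were further strong peaks. TCF4 had a fold of 24.3 at 16251 bp from the start, with HAND2 at 5.60 and 5.68. A TCF4 peak of 13.1 lay 211 bp before an inner start of SHF, with HAND2 at 5.28 and 7.41 and MEIS2 replicate 1 at 5.10. HAND2 peaks of 17.1 and 14.4 lay 956 and 959 bp before another inner start, and HAND2 peaks of 29.4 and 12.9 stood 35874 and 35968 bp upstream of the gene. In DUOX1, HAND2 had 15.0 and 9.86 in the gene body. HAND2 peaks of high fold at this locus were thus not limited to the TCF4 summit.

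IGFBP4 encodes a secreted protein that binds insulin-like growth factors and holds them from their receptor (gene ID 3487, chr17:40443450-40457725, plus strand). Its TCF4 peak, chr17:40457739-40459144, began just past the gene. Its fold was 57.5 (54.6 to 60.6), from 1455 fragments over 24.3, and its summit lay 771 bp beyond the far end. The nearest listed start was that of IGFBP4 itself, 15046 bp away. HAND2 had folds of 22.7 and 23.2, with summits 39 and 4 bp from that of TCF4, and MEIS2 replicate 1 had 6.41, 78 bp off. A second TCF4 peak of 39.9 followed, with its summit 3787 bp farther on, beside the highest MEIS2 peak of these loci, 18.0 in replicate 1. The HAND2 peaks were 6267 and 6438 bp wide and spanned most of both. Both HAND2 replicates also listed the identical interval, chr17:40450390-40454891, inside the gene, with folds of 10.9 and 11.7. It is the only identical one around the 8 genes, of 112 in the whole lists. At the start of IGFBP4, TCF4 had 12.1 and HAND2 3.30 and 3.49, so both factors were found at both ends, with higher folds at the far end.

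**Figure D3:**
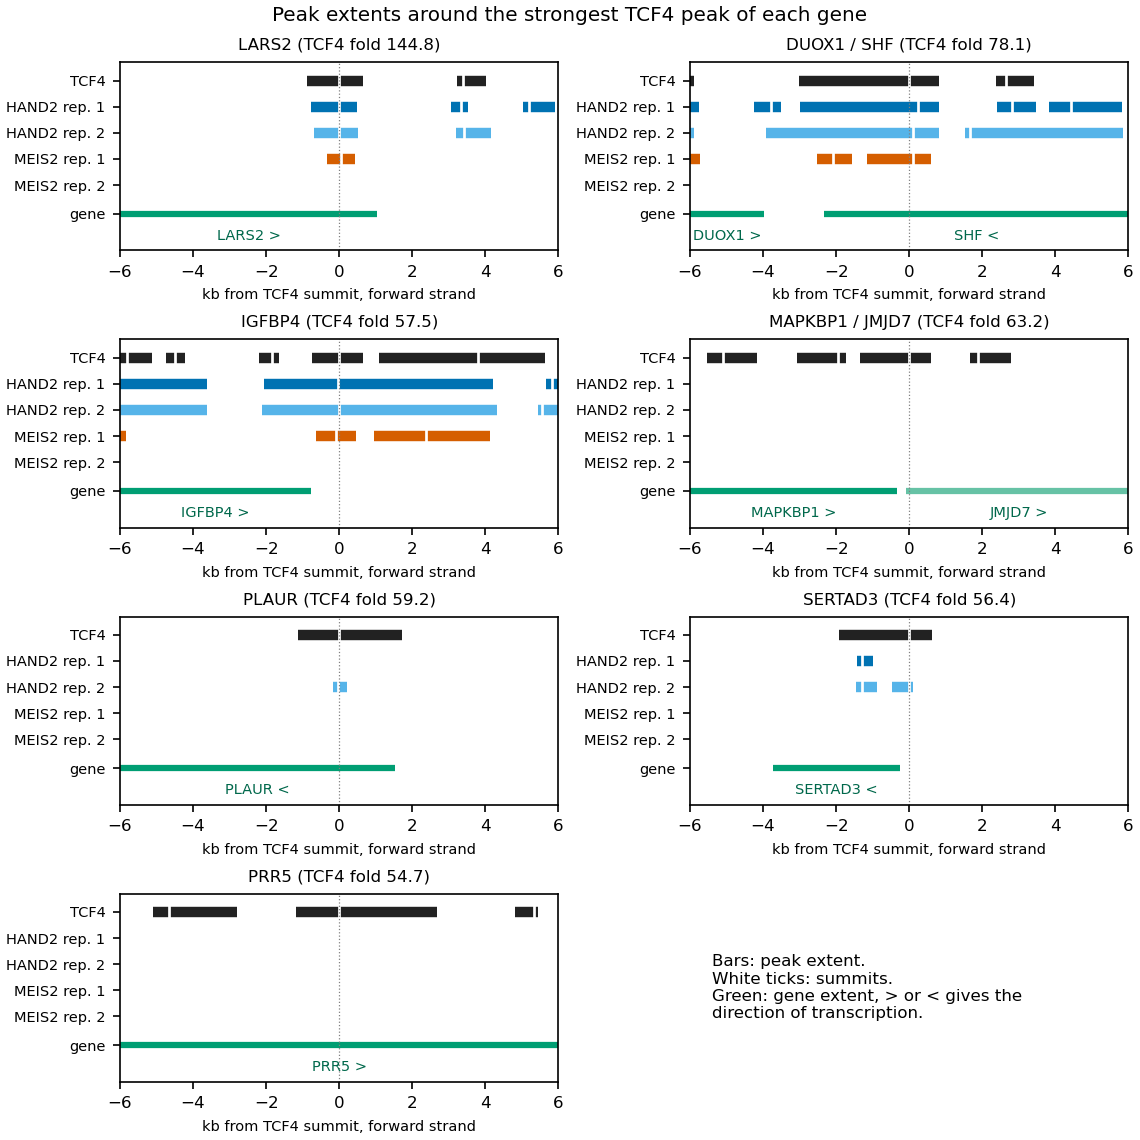
Extents of the peaks of 5 libraries within 6 kb of the TCF4 summit at each of the 7 places (kb along the forward strand), with white ticks at summits and genes in green. At LARS2, DUOX1/SHF and IGFBP4 the HAND2 and MEIS2 replicate 1 peaks cover the TCF4 summit, while at MAPKBP1 and PRR5 only TCF4 peaks are drawn.

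MAPKBP1 encodes a scaffold protein that binds JNK kinases (gene ID 23005, chr15:41774484-41827855, plus strand). Its far-end peak, chr15:41826828-41828778, had a TCF4 fold of 63.2 (59.1 to 67.4) from 904 fragments over 13.3. The summit lay 333 bp beyond the gene and 96 bp past the start of JMJD7, a JmjC-domain protein gene that begins 237 bp downstream on the same strand. By position the peak is at the start of JMJD7 as much as at the end of MAPKBP1. No HAND2 or MEIS2 peak of any replicate overlapped it. The start of MAPKBP1 carried a separate TCF4 peak of 14.5 (13.1 to 16.0), from 399 fragments, with HAND2 at 2.72 and 2.42. The HAND2 region counted for MAPKBP1 is thus at the gene's start, which is 53704 bp from the strong TCF4 summit. The window of the JMJD7 start is shown as the sequence beside the highest of the 4 summits at starts (chr15:41827842-41828141, plus strand).
JMJD7 start: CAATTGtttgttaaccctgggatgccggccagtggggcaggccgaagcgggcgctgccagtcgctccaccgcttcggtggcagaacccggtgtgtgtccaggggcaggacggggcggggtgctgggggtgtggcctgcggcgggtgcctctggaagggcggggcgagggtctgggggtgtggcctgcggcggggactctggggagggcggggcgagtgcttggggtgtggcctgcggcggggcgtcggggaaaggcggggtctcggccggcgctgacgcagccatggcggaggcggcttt
It holds a single E-box, CAATTG, at its very first bases, 250 bp before the start, and is rich in G and C (73.7%, against a median of 58.7% over all windows).

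PLAUR encodes the urokinase receptor, which gathers plasminogen activation at the cell surface (gene ID 5329, chr19:43646095-43670169, minus strand). Its TCF4 peak, chr19:43667530-43670380, had a fold of 59.2 (56.1 to 62.4) from 1404 fragments over 22.7. It overlapped the start of PLAUR, but its summit lay 1515 bp inside the gene, 110 bp before the start of LOC124904724, a long noncoding RNA listed on the opposite strand. HAND2 replicate 2 had a peak of 2.68 there, 25 bp from the TCF4 summit, and replicate 1 had none. No other peak of any library lay at either end of PLAUR. The window of the noncoding RNA's start, into which the TCF4 summit falls, is shown for its repeats (chr19:43668514-43668813, plus strand).
LOC124904724 start: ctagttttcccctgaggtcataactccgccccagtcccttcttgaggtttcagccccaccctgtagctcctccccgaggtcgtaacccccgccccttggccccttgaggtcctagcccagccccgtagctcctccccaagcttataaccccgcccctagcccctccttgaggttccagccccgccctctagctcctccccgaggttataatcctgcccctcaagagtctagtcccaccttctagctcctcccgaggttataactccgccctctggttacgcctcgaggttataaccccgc
It holds no CANNTG, though 68.7% of all windows do. The 8 letters AGCTCCTC occur in it 4 times, and 9.60% of all windows repeat some 8-letter word at least as often.

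SERTAD3 encodes a small SERTA-domain regulator of transcription (gene ID 29946, chr19:40440844-40444335, minus strand). Its TCF4 peak, chr19:40442659-40445193, had a fold of 56.4 from 1781 fragments over 30.6, with the summit 244 bp before the start and 62 bp past the start of the antisense SERTAD3-AS1. HAND2 replicate 2 had a peak of 2.44 with its summit at the same base as TCF4. A second HAND2 peak, of 2.33 in replicate 1 and 2.70 in replicate 2, lay 1286 and 1285 bp away inside the gene. The HAND2 region of SERTAD3 is that inner one, and at the TCF4 summit itself only 1 replicate had a HAND2 peak. The window of the SERTAD3 start, which contains the TCF4 summit, shows where that summit stands against the E-box (chr19:40444286-40444585, minus strand).
SERTAD3 start: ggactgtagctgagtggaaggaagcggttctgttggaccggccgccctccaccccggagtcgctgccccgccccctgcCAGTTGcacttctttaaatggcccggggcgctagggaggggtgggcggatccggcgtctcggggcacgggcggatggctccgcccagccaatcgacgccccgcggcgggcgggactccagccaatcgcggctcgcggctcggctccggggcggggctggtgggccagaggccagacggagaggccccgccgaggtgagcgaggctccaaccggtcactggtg
Its single E-box, CAGTTG, begins 172 bp before the start. The neighbour SERTAD1, 14852 bp away and of the same family, had a TCF4 fold of 33.4 and HAND2 of 2.21 and 3.36.

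PRR5 encodes a subunit of the mTORC2 kinase complex (gene ID 55615, chr22:44668751-44737681, plus strand). Its strong TCF4 peak, chr22:44701151-44705008, had a fold of 54.7 (49.98 to 59.8) from 488 fragments over 7.94, at rank 79. It lay 33581 and 35349 bp from the ends of the gene and reached neither. Its summit was 128 bp past an inner PRR5 start that is also the start of PRR5-ARHGAP8, so the fold is an end value for that readthrough gene and not for PRR5. No HAND2 or MEIS2 peak overlapped it. A second broad TCF4 peak, of 24.3, lay 27346 bp farther on, with HAND2 at 4.49 and 5.02. The window of the inner start is shown because it is the start at which the PRR5 peak is centred (chr22:44701954-44702253, plus strand).
PRR5 inner start: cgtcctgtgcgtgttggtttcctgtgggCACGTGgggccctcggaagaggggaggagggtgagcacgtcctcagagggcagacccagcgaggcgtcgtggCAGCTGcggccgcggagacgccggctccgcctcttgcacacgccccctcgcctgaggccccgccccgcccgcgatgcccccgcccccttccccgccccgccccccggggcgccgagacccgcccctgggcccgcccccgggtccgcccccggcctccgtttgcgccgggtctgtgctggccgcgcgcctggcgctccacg
It holds 2 E-boxes, CACGTG at 222 bp and CAGCTG at 150 bp before the start. Windows with at least 2 E-boxes make up 36.5% of all. None of the start windows of the 8 genes held TGACAG. No sequence was read at the LARS2, DUOX1/SHF and IGFBP4 summits, which lie in no start window.

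Over wider windows the 8 genes differed from each other. With each summit counted a single time, the 8 genes and the 50 kb on either side held 80 TCF4 summits, 40 HAND2 regions and 2 MEIS2 regions. PRR5 had 22 TCF4 summits, 12 of them inside the gene, MAPKBP1 17, IGFBP4 15, SERTAD3 9, DUOX1 and SHF 8 each, LARS2 5 and PLAUR 4. The median over all protein-coding genes was 2. Per 100 kb of window, which takes gene length into account, IGFBP4 had 13.1, PRR5 13.0 and MAPKBP1 11.1 TCF4 summits, above those of 96.1%, 96.0% and 94.2% of all genes. LARS2, with the highest single fold, had 1.92, above 59.0%. These counts include the TCF4 peaks that chose the genes, so nothing is read from their place among all genes. As a description only, LARS2 had the highest fold and PRR5 the most TCF4 summits in its window.

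The order by HAND2 was different. SHF had 12 HAND2 regions, IGFBP4 11 and DUOX1 10, LARS2 and PRR5 5 each, MAPKBP1 4, SERTAD3 2 and PLAUR 1, against a median of 1. Per 100 kb, IGFBP4 had 9.63, SHF 8.96 and DUOX1 7.38, above 99.1%, 98.8% and 97.5% of all genes. Among these are the HAND2 regions at the TCF4 peaks that chose the genes, so nothing is read from these places among all genes. The windows of DUOX1 and SHF overlap and share most of their regions. PRR5 and MAPKBP1, near the top by TCF4, had 2.96 and 2.61 HAND2 regions per 100 kb, above 85.2% and 81.4%.

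**Figure D4:**
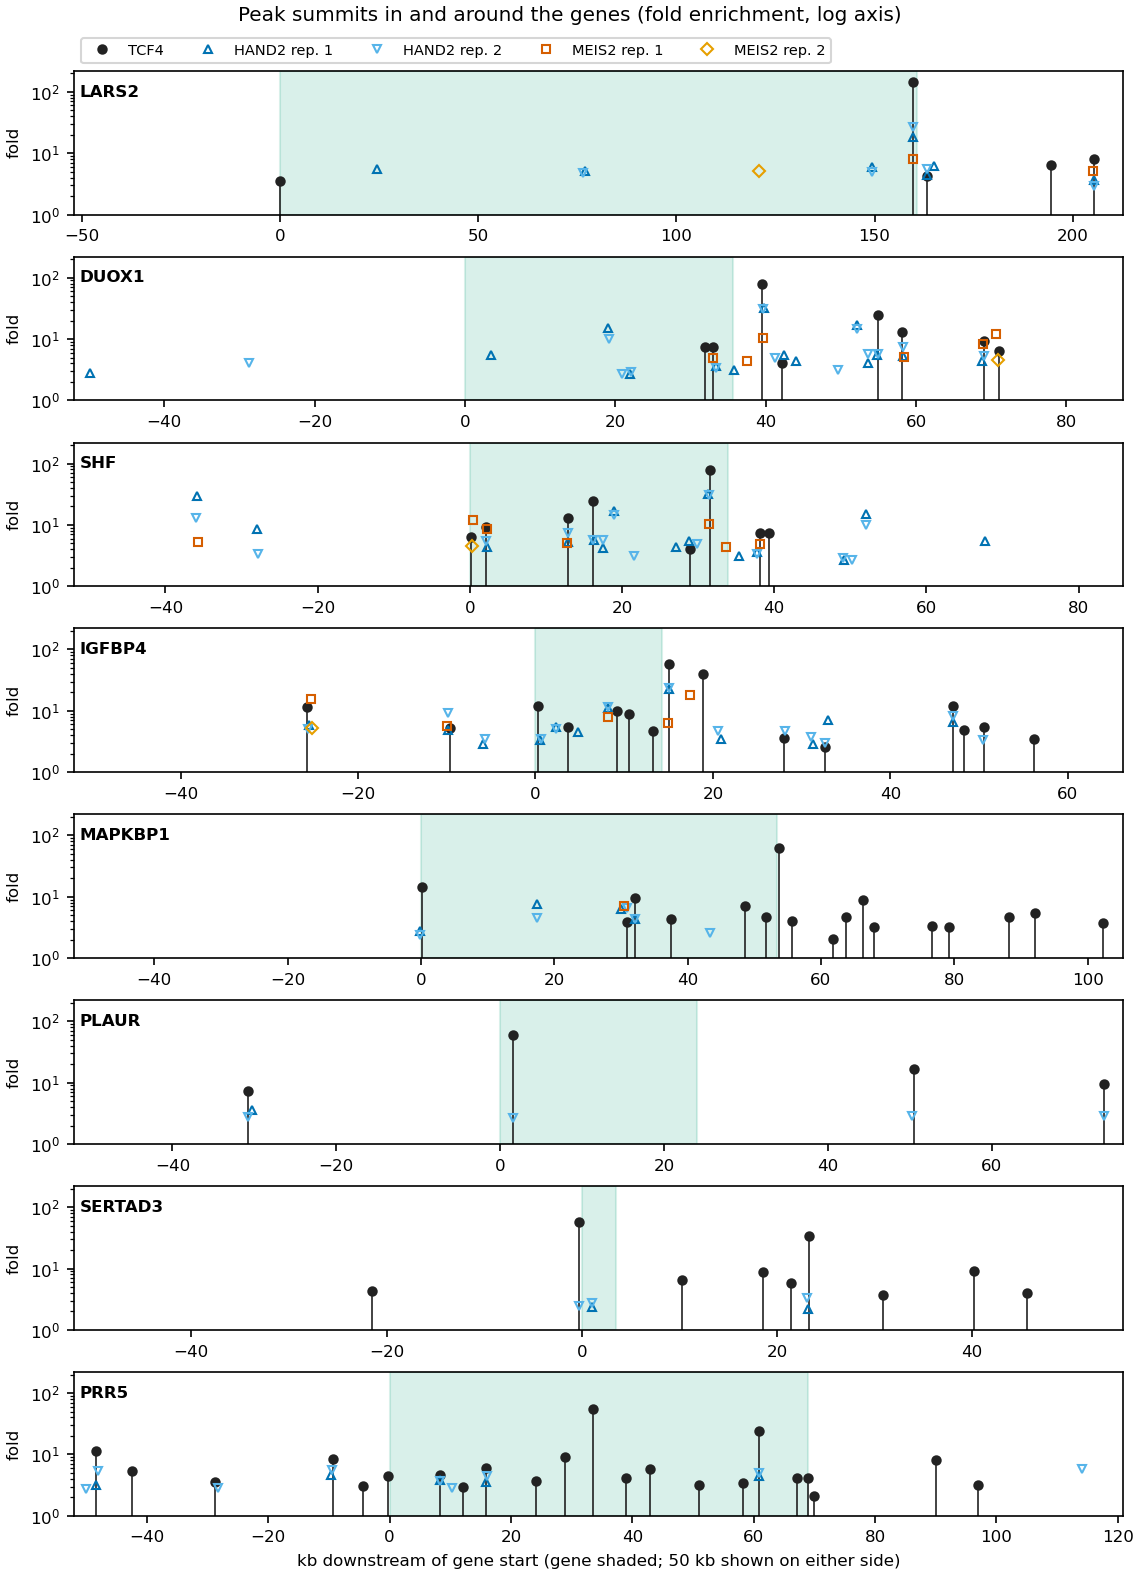
Summits of the 5 libraries along each of the 8 genes and the 50 kb on either side, placed by distance downstream of the gene start (kb) and by fold (log axis), with the gene body shaded. TCF4 summits are densest around IGFBP4, MAPKBP1 and PRR5, with 15, 17 and 22, while HAND2 summits gather around DUOX1, SHF and IGFBP4.

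In these windows 42 of the 47 peaks of HAND2 replicate 1 met a peak of replicate 2 (89.4%, against 78.5% in the whole list), and 40 of the 54 of replicate 2 met one of replicate 1 (74.1%, against 71.6%). For MEIS2, 2 of 15 replicate 1 peaks overlapped one of replicate 2 (13.3%, against 24.6%), and 2 of 3 the other way round (66.7%, against 16.8%). All 15 MEIS2 replicate 1 peaks overlapped a HAND2 region, against 76.4% in the whole list, and 14 overlapped a TCF4 peak, against 66.6%. Some of these TCF4 peaks are the ones that chose the genes, so nothing is read from these 2 shares. Of the 80 TCF4 peaks, 32 overlapped a HAND2 region (40%, against 41.5%), a share near the background. The 2 MEIS2 regions were the one at the start of SHF and one at the start of TOP2A, a topoisomerase gene upstream of IGFBP4. At TOP2A the folds were 11.7 for TCF4, 5.85 and 5.01 for HAND2 and 15.9 and 5.23 for MEIS2.

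Relatives of the 8 genes, taken from 8 family lists, had TCF4 at an end in 51 of 82 cases (62.2%, against 53.9% of all genes) and a HAND2 region in 25 (30.5%, against 19.1%). Their median TCF4 fold where present was 4.77, against 5.33 over all genes. The 7 listed genes were chosen for high folds, so nothing is read from none of these relatives reaching their range. The highest was STC2, an inhibitor of the protease that cleaves IGFBP4, with 45.9 at its far end, HAND2 at 36.0 and 44.2 and MEIS2 replicate 1 at 10.7. In the insulin-like growth factor list 7 of 16 genes had TCF4, among them IGFBP2 at 12.7, also at the far end, and IGFBP6 at 5.04. IGFBP1, IGFBP3 and IGFBP7 had no peak at an end in any library.

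Family by family, the counts that follow include the listed gene itself and are to be read against 53.9% of all genes for TCF4 and 19.1% for a HAND2 region. All 5 SERTA-domain genes had TCF4 and a HAND2 region at an end. After SERTAD3 came SERTAD1 at 33.4, SERTAD4 at 32.1, SERTAD2 at 11.5 and CDCA4 at 8.93, with HAND2 folds of 1.91 to 5.70 in the 5 genes. All 4 SHB-family adaptors had TCF4, with SHB at 28.1, SHD at 7.97 and SHE at 3.48, and 3 had a HAND2 region. All 10 genes of the JNK scaffold list had TCF4, led after MAPKBP1 by MAPK8IP3 at 13.8, MAPK9 at 9.72 and MAPK8IP2 at 6.83, and 3 had a HAND2 region. Of 20 aminoacyl-tRNA synthetases 13 had TCF4, led after LARS2 by CARS2 at 20.5, AARS2 at 8.94 and YARS2 at 7.35, while LARS1, the cytosolic leucine enzyme, had none. Of 12 genes of the urokinase system 8 had TCF4, with VTN at 17.7 and SERPINF2 at 10.4, but the ligand of the receptor, PLAU, had no peak at an end in any library. Of 15 NADPH oxidase genes 6 had TCF4, with NOXA1 at 8.23 and CYBA at 6.10. In the mTORC2 list 6 of 8 had it, none above 4.77, the value of MLST8.

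The gene most like each of the 8 was sought among genes not on the list and sharing no peak with a listed gene. It was the one with the smallest distance over 5 libraries between percentile ranks of the highest end fold. For LARS2 it was RD3, with TCF4 at 29.1, HAND2 at 20.7 and 16.6 and MEIS2 replicate 1 at 8.28 (distance 4.30 percentile points). For DUOX1 it was PPM1M (2.80), for SHF STC2 (11.3), for IGFBP4 ENDOG (5.09), for SERTAD3 LIPT2 (2.31) and for MAPKBP1 CASP9 (6.06). For PLAUR it was TBC1D24 (0.189) and for PRR5 VPS36 (0.0163), each with TCF4 alone, at 50.2 and 4.52, so that these likenesses rest on a single library. SHF had the largest distance to its nearest gene. Most of it came from MEIS2 replicate 2, where SHF stood at percentile 10.9 and STC2 had no peak.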

How the data were processed

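CUT&Tag peak lists of 5 libraries were used, grouped by the antibody in the labels. The submitters' processing notes name bcl2fastq 2.17, Bowtie2, MACS3 3.0.0a6 and the hg38 build, while options and roles are not given in the sources used. The deposited lists give, per peak, a fold (a ratio of pile-up to local background) and −log10 p and −log10 q values, as the authors' peak caller wrote them, called per sample. A deposited score, −log10 q scaled to whole numbers by the authors' caller, was not used. Peaks outside chromosomes 1 to 22 and X (0, 0, 3, 5 and 7) were left out. The whole pile-up was recovered where fold and Poisson p matched within a relative tolerance of 5e-05 (98.6% of MEIS2 replicate 1 peaks, 100% elsewhere), and the step was tested on simulated data. Gene positions, start sites and sequences are from RefSeq GRCh38.p14; all 8 genes matched. Exons, introns and UTRs were not used here. The 8 genes and the family lists were chosen with earlier results of these data known. Named genes are the 8 genes, those sharing their TCF4 peak, their neighbours in rank or likeness, and up to 4 TCF4-marked genes per family; TOP2A and the genes beside DUOX1 were named after their values were seen, and 1 gene of a family list is not reported here. No test was made: the genes were chosen on TCF4, which has 1 library, and counts are read against all genes. Alternatives changed the window, the peak threshold, the overlap rule and the replicates. Scripts ran in Python 3.11.15 with numpy 2.4.6, pandas 2.3.3, scipy 1.17.1 and matplotlib 3.10.9.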

Additional observations from a re-analysis of the deposited data

How the results depend on the processing

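The TCF4 library has no replicate and the IgG peaks were not analysed here, so a TCF4 peak that would fail to recur cannot be told apart from one that would. MEIS2 replicate 2 had the lowest median pile-up, 13, but more peaks (13871) than replicate 1 (9595), and why it lacks peaks of replicate 1 was not tested. Over the counts of genes, places and summits, 35 alternatives stayed within 1.5 times the reported count and 12 did not; the cause was not tested, except where fewer peaks or a narrower window enter by construction. With a summit required in the 1 kb window, 2 genes in place of 6 had HAND2 at an end. With the 5000 highest peaks of each list, the genes and 50 kb held 18 TCF4 summits in place of 80, 7 HAND2 regions in place of 40 and 0 MEIS2 regions in place of 2, and 0 genes in place of 1 had MEIS2 at an end. MEIS2 regions numbered 1 within 25 kb and 4 within 100 kb. With a peak of either MEIS2 replicate, 3 genes and 3 places had MEIS2, in place of 1 and 0. Leaving out each replicate in turn leaves single peaks of the other replicate in place of regions. It gave 1 to 3 genes, 0 to 3 places and 3 to 15 peak summits for MEIS2, the highest without MEIS2 replicate 2. For HAND2 it gave 6 to 6 genes, 4 to 5 places and 47 to 54 peak summits. With a summit required in the window, the highest TCF4 fold was 3.46 for LARS2 and 6.35 for SHF, DUOX1 and PLAUR had no value, and IGFBP4, SERTAD3, MAPKBP1 and PRR5 kept theirs. The counts by place were added after the data were seen. The alternatives of leaving out a HAND2 replicate for TCF4 summits, or a MEIS2 replicate for HAND2 regions, were not run, since those counts use no peak of that replicate. No paired analysis was possible because no result comes from a test; HAND2 and MEIS2 share replicate numbers only.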

Other observations

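Genes beside the 8 carried further peaks that belong to none of the counts at their ends. SPTBN5, a spectrin gene downstream of MAPKBP1, had a TCF4 fold of 20.7 and HAND2 folds of 7.40 and 8.21. These lay at its start, beyond the 50 kb window of MAPKBP1. ZNF428, 26466 bp from PLAUR, had TCF4 at 16.9 and HAND2 at 2.89 in replicate 2 only, and IRGQ and ZNF576 had 9.37 and 2.83 in the same 2 libraries. SPTBN4, which begins 22666 bp from SERTAD3, had a MEIS2 replicate 1 fold of 13.4 and a TCF4 fold of 5.10 at its far end. That end lies beyond the 50 kb window of SERTAD3, and neither end of SPTBN4 had a HAND2 peak. LIMD1, downstream of LARS2, had TCF4 at 7.98, HAND2 at 3.64 and 2.87 and MEIS2 replicate 1 at 5.14. These genes were named after their values were seen.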
